A study of Mus musculus with 11 samples.

Results

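The genes described here encode subunits of the mitochondrial respiratory chain and ATP synthase, complexes I to V, in the nucleus or in mitochondrial DNA. They were chosen by symbol (the Nduf, Sdh, Uqcr, Cox and Atp5 families and the mt-Nd, mt-Co, mt-Atp and mt-Cytb genes, without those marked as pseudogenes), which took 105 of 35683 genes in the table. For 3 of them, Uqcrc1, Ndufs3 and Atp5a1, the table holds a second Ensembl identifier with the same value in every library, so each identifier shows only part of that gene's level. Counted once, there were 102 members, 89 nuclear and 13 mitochondrial. Of these, 97 reached an abundance of 1 in at least 5 libraries and were tested, 84 nuclear and all 13 mitochondrial. The other 5 were Cox7b2 and Cox8c, listed at 0 throughout, and Ndufs6b, Ndufa11b and a second Atp5o identifier, which averaged under 1. The rule also takes Cox7a2l, a supercomplex assembly factor, and Atp5s, which are not classical subunits, and it misses Cyc1 and Ndufab1, which are.

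RNA came from the full thickness of the colon of mice aged 2 weeks, before weaning, 6 with the genotype Tnfr1-/- and 5 wild type. Each library is the colon of 1 mouse. TNFR1, encoded by Tnfrsf1a, is the receptor through which TNF sends most of its inflammatory and death signals. The labels name neither sex, litter, strain background nor the deleted part of the gene, so the p-values measure the spread between these mice, and shared litters or cages cannot be told apart from genotype. The question addressed was whether respiratory chain RNA differed between the genotypes, in each complex and in each genome.

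The respiratory chain passes electrons from NADH (complex I) and succinate (complex II) through complex III and cytochrome c to oxygen at complex IV (cytochrome c oxidase, COX), and ATP synthase (complex V) uses the resulting proton gradient. Complex II is encoded wholly in the nucleus, and the others join subunits from both genomes, so nuclear and mitochondrial transcripts have to be supplied together. Colonocytes are known for oxidising butyrate in their mitochondria, and several COX subunits have a heart and skeletal muscle isoform beside the form found in most tissues.

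Mitochondrial DNA is compact, and the sequence of mt-Atp8 shows what this does to counting. Its frame (mitochondrial DNA of GRCm38, chrM:7766-7969, plus strand, 204 bases) shares its last 43 bases, in capitals, with the start of mt-Atp6.
mt-Atp8: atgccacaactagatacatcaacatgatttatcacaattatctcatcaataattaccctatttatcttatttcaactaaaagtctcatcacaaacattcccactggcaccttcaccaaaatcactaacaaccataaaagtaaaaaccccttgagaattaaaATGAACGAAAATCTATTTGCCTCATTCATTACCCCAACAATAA
At 31 bases, the word length by which kallisto matches reads unless told otherwise (the setting used is not given in the sources used here), 7.47% of the words of mt-Atp8 also occur in another gene. For mt-Co2, mt-Co3 and mt-Atp6 the share was 100%, 99.9% and 99.5%. Many of the other copies lie in 1 stretch of nuclear DNA on chromosome 1 (24611535 to 24616197, minus strand), annotated as 7 pseudogenes. They are named here by a choice made after their values were seen.

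The copy of the end of mt-Co1, Gm29216, aligned without gaps over its 492 bases to bases 1054 to 1545 of mt-Co1, with 6 mismatches. All of them lie in its first 13 bases, shown as capitals in the first 33 bases of the alignment, so a read that lies wholly past them fits both genes equally well.
mt-Co1: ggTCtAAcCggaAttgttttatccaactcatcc
Gm29216: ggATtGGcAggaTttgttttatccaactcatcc

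Promoters of nuclear members are known to carry sites for NRF1, for ETS factors such as GABP, and for YY1. In RefSeq windows (GRCm38.p6, 250 bases before to 50 after the start), 67 of 89 nuclear members had at least 1 window, 71 in all. The core letters of an NRF1 site, CGCATGCG, occurred on either strand in 9 of the 71 (12.7%), against 1.87% of all 32851 promoters. This core was taken after a longer form of the site had been counted, which was found in fewer windows of both kinds. ETS letters (CCGGAAG) occurred in 16 (22.5%, against 8.86%) and YY1 letters (AAGATGGCG) in 7 (9.86%, against 1.4%). An ETS match may overlap a YY1 match, since one ends and the other begins with AAG. A MyoD-type E-box (CAGCTG) occurred in 6 (8.45%, against 16.3%), those of Cox8b, Ndufa8, Atp5b, Ndufv2, Ndufs5 and Ndufb10, and not in the window of the muscle gene Cox7a1. The 250 upstream bases of a pair of COX genes, a subunit found in most tissues (Cox6a1, chr5:115348959-115349208, minus strand) and a muscle subunit (Cox8b, chr7:140900447-140900696, minus strand), show the kinds of match in capitals: NRF1 and then ETS, read on the opposite strand, in Cox6a1, and an E-box in Cox8b.
Cox6a1: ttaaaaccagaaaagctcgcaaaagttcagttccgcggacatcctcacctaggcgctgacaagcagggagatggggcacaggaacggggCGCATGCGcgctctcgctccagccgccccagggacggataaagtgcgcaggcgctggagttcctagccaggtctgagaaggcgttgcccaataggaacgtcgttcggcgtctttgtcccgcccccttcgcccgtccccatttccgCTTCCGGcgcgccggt
Cox8b: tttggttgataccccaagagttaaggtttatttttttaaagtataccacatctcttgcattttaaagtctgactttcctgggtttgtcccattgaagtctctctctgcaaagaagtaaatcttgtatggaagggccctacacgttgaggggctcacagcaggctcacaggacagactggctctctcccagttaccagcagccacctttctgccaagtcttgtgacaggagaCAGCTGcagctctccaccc
A match is a description of letters, not of binding.

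Values are abundances (TPM divided by a factor for each library, so already per transcript length), and each column summed to between 934563 and 1055498. Tnfrsf1a was lower in Tnfr1-/- in every library (at most 28.03, against at least 61.7 in wild type, log2 fold change -1.57, limma adjusted p = 8.5e-05) and was the 1 gene called among 15079 (0.00663%). All 11 colonocyte markers were found. Wild-type replicates 1 and 2 stood apart with the highest summed colonocyte markers (5123 and 4996, others 3236 to 4138) and the lowest fibroblast markers (1683 and 1635). Wild-type replicate 4 had the highest smooth muscle markers (12144, others 4663 to 8964) and fibroblast markers (3669). Tnfr1-/- replicate 2 had the highest skeletal muscle markers (10880 against 565 to 3528 in the other 10). All 9 smooth muscle, 8 fibroblast and 11 skeletal muscle markers averaged at least 1, and none was at 0. In whole tissue, fewer cells of a type and less RNA per cell cannot be told apart.

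No respiratory chain gene passed the test between genotypes, a limma fit over all genes. The smallest limma adjusted p of the 97 was 0.414, and the 95% interval of the difference lay within 1.5-fold for 93 of them. The exceptions, all counted with complex IV, were Cox6a2, Cox8b, Cox6b2 and Ndufa4l2. At an unadjusted p under 0.05, 9 members were lower in Tnfr1-/- and 0 higher, where 5.17% of all genes were lower and 4.2% higher. These 9 were nuclear: Ndufs8, Ndufa2, Ndufa8, Ndufb5, Ndufs4 and Ndufb2 of complex I, Sdhb of complex II, Uqcrq of complex III and Atp5d of complex V.

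Nuclear members lay slightly below wild type in all 5 complexes. The log2 fold change was below 0 for 77 of 84, where 52.1% of all genes were below 0, with a median of -0.08 against -0.01 over all genes. By complex the median was -0.08 for I (34 of 36 below 0), -0.07 for II (3 of 4), -0.09 for III (8 of 8), -0.10 for IV (15 of 19) and -0.08 for V (17 of 17). Mitochondrial members were on both sides of 0, 7 below and 6 above, with a median of -0.0023 and none at an unadjusted p under 0.05. Members of 1 genome move together across libraries, so these counts are not counts of independent genes.

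**Figure D1:**
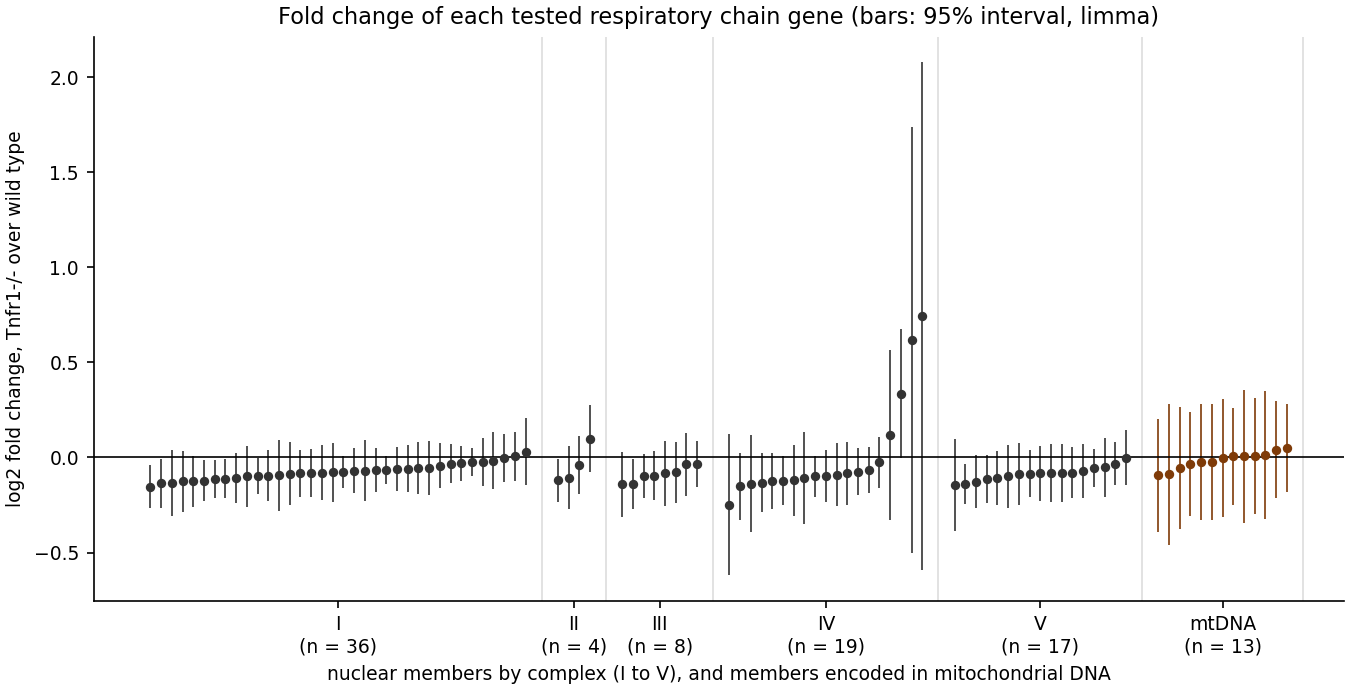
Log2 fold change (Tnfr1-/- over wild type, limma) of the 97 tested members, sorted within complexes I to V for nuclear members and in a last block for genes of mitochondrial DNA; bars are 95% intervals. Most nuclear members sit just below 0 (median -0.08), mitochondrial members lie around 0, and the wide intervals in complex IV belong to Cox8b (log2 fold change 0.62) and Cox6a2 (0.74).

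The size of the shift of the nuclear members changed with single wild-type colons, while its median stayed below 0 whichever library was left out. Of the 84, wild-type replicate 1 was the highest library for 53 and replicate 4 the lowest for 34. The median over nuclear members of the log2 value, centred on each gene's mean over the 11 libraries, came to 0.18 for wild-type replicate 1 and 0.08 for replicate 2. It was 0.0012 in replicate 3, -0.11 in replicate 4 and 0.06 in replicate 5. The 6 Tnfr1-/- libraries lay between -0.07 and 0.01, inside the wild-type range. Without wild-type replicate 1 the median fold change was -0.05 and 2 members had an unadjusted p under 0.05, both lower (4.07% of all genes were lower and 3.22% higher). Without replicate 4 it was -0.13 and 40 had one, all lower (6.65% of all genes were lower and 5.05% higher). Without replicates 1 and 2 together the median was -0.02, and 4 members were lower (10.3% of all genes) and 2 higher (6.12%). Dropping the highest colons of 1 group moves a fold change by construction. The count was 4 or 5 when any 1 of wild-type replicate 2 and Tnfr1-/- replicates 1, 3, 4, 5 and 6 was left out. The share of all genes in those fits is not given here, so these counts cannot be set against it. The part of the colonocyte, fibroblast and smooth muscle markers in these positions was not tested.

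**Figure D2:**
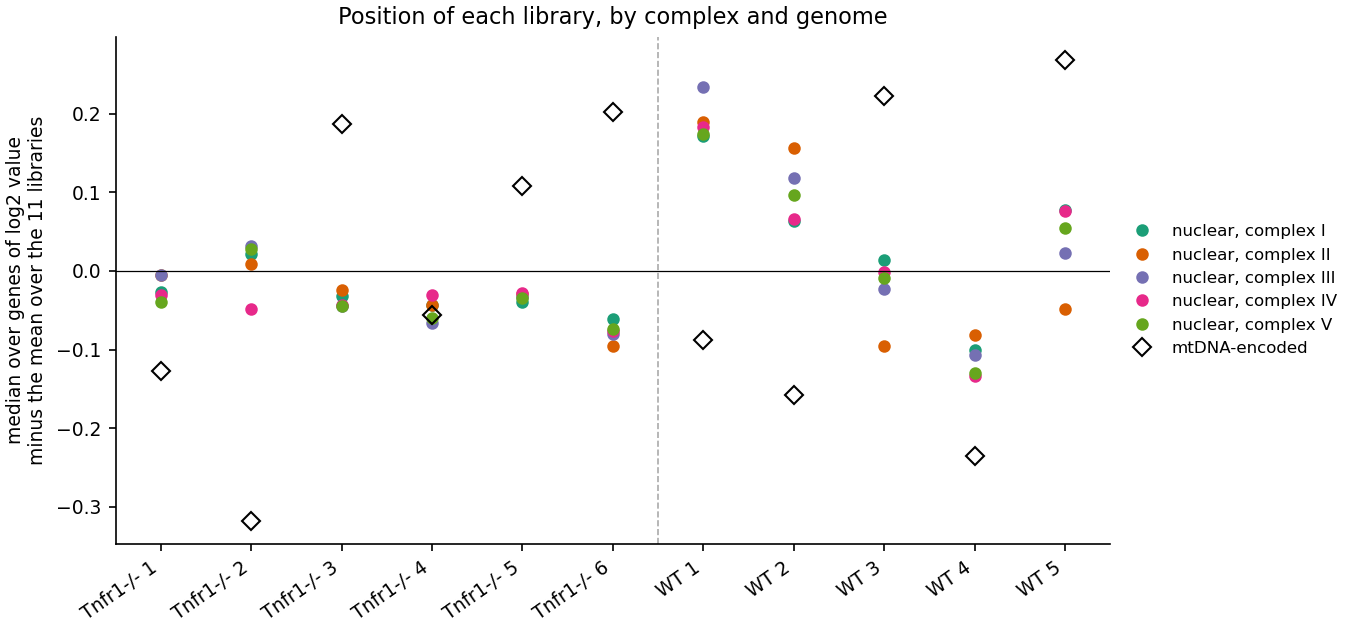
Position of each library: median over genes of the centred log2 value (0 is the mean of the 11 libraries), for the nuclear members of each complex (dots) and for the mitochondrial members (diamonds). All 5 complexes are highest in wild-type replicate 1, and complex II, with 4 genes, lies away from the others in wild-type replicates 3 (-0.10) and 5 (-0.05), while the mitochondrial members take another order, highest in wild-type replicate 5 (0.27) and lowest in Tnfr1-/- replicate 2 (-0.32).

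In complex I, which takes electrons from NADH, the 7 tested core subunits encoded in the nucleus were all below wild type (median -0.08), as were 27 of 29 accessory subunits (median -0.07). Ndufs8, a core subunit that holds iron-sulfur clusters in the arm toward the membrane, had the smallest p of any member. It was at 128.0, 113.5, 106.1, 105.8 and 108.1 in wild-type replicates 1 to 5, and from 99.2 through a median of 99.7 to 104.6 in Tnfr1-/-. It was the 1 member whose groups did not overlap (of all genes, 0.769% were lower and 0.723% higher without overlap), and its wild-type values had replicate 1 well above the other 4. Its log2 fold change came to -0.15 (SE 0.05, limma adjusted p = 0.414). The gene lies on chromosome 19 at 3908863 to 3912774 (GRCm38), and none of its 31-base words occurred in another gene.

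Ndufb5, an accessory subunit of the membrane arm, was at 258, 258, 252, 227 and 255 in wild-type replicates 1 to 5 and ran from 215 to 241 in Tnfr1-/- with a median of 234. Wild-type replicate 4 alone lay among the Tnfr1-/- values (log2 fold change -0.11, SE 0.05, limma adjusted p = 0.504). Ndufa2, an accessory subunit of the NADH-oxidising arm, averaged 223 ± 15.7 among the 5 wild-type and 204 ± 6.12 among the 6 Tnfr1-/- colons (± SD, here and below), and Ndufa8, an accessory subunit of the membrane arm, at 142 ± 9.64 and 131 ± 3.26. The most abundant nuclear members of this complex, Ndufa6 and Ndufb8, had wild-type means of 435 ± 37.7 and 430.4 ± 33.4, against 428 ± 14.02 and 405 ± 17.4 in Tnfr1-/-, differences within the spread of the wild-type libraries.

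Complex II, the succinate dehydrogenase that also works in the citric acid cycle, had members on both sides. Sdhb, its iron-sulfur subunit, was at 233, 221, 196, 194 and 201 in wild-type replicates 1 to 5 and between 187 and 195 in Tnfr1-/-, with a median of 193. Wild-type replicates 1 and 2 were the high ones (log2 fold change -0.12, SE 0.05, limma adjusted p = 0.515). Sdha, the flavoprotein that oxidises succinate, averaged 254 ± 26.6 in wild type against 272 ± 25.3 in Tnfr1-/- (log2 fold change 0.10, 95% interval -0.08 to 0.28). Part of that sum was the transcript ENSMUST00000160900.1, with means of 75.1 in wild type and 98.6 in Tnfr1-/-. From the authors' deposited means, it rested on only about 102 estimated counts in a typical library. Another Sdha transcript, ENSMUST00000161434.1, was lower in Tnfr1-/-. Whether Sdha stays above wild type without ENSMUST00000160900.1 was not tested. The membrane anchors Sdhc and Sdhd had wild-type means of 352 ± 41.0 and 332 ± 40.8 and Tnfr1-/- means of 341 ± 10.9 and 307 ± 16.7.

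Complex III passes electrons from ubiquinol to cytochrome c, and all 8 of its nuclear members were below wild type without passing. Uqcrq, a small subunit beside cytochrome b, was at 532, 473, 452, 413 and 447 in wild-type replicates 1 to 5 and between 401 and 436 in Tnfr1-/-, with a median of 422. Here wild-type replicate 4 lay inside the Tnfr1-/- range and replicate 1 far above it (log2 fold change -0.14, SE 0.06, limma adjusted p = 0.515). Uqcrfs1, the Rieske iron-sulfur protein, was at 221 ± 28.8 and 199 ± 9.87, and Uqcr11 at 532 ± 41.5 and 496 ± 4.18. Uqcrh, the hinge protein that assists cytochrome c, was the most abundant at 921 ± 99.4 and 869 ± 50.4, followed by Uqcrb (647 ± 88.2 and 607 ± 16.3) and Uqcr10 (631 ± 45.8 and 589.6 ± 33.9).

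Complex IV has isoforms for several subunits. Its common subunits were among the most abundant nuclear members and lay below wild type without passing. Cox4i1, the form of subunit 4 in most tissues, was at 1551, 1487, 1491, 1299 and 1627 in wild-type replicates 1 to 5 and between 1301 and 1411 in Tnfr1-/-, with a median of 1375. Wild-type replicate 4 was the lowest of all 11 libraries (log2 fold change -0.12, SE 0.06, limma adjusted p = 0.552). Cox8a was at 1198 ± 64.9 and 1118 ± 44.6, Cox6b1 at 926 ± 117 and 829.2 ± 42.4, and Cox6a1, whose promoter is shown above, at 867 ± 96.6 and 788 ± 39.6. Cox7b was at 755 ± 97.6 and 708 ± 9.34 and Cox7a2 at 589 ± 50.2 and 557 ± 15.5, while Cox7a2l differed least (328 ± 24.1 and 322 ± 20.6).

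Cox6a2 and Cox8b, muscle isoforms of COX, had their highest value of each genotype in the colon with most skeletal muscle RNA. Cox6a2, the heart and skeletal muscle form of subunit 6a, was at 8.37, 6.96, 4.09, 6.66 and 22.9 in wild-type replicates 1 to 5. In Tnfr1-/- replicates 1 to 6 it was at 8.88, 62.9, 5.53, 18.0, 21.4 and 6.29. The summed skeletal muscle markers of the same Tnfr1-/- colons were 1057, 10880, 723, 1411, 3528 and 782, and those of the wild type 933, 918, 565, 714 and 2802. The highest library in each genotype was thus the same for both, Tnfr1-/- replicate 2 and wild-type replicate 5. Groups overlapped, with a log2 fold change of 0.74 (SE 0.61, limma adjusted p = 0.737).

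Cox8b, the muscle form of subunit 8, was at 15.5, 12.7, 20.8, 13.7 and 43.5 in wild-type replicates 1 to 5 and from 9.40 through a median of 29.1 to 102 in Tnfr1-/-. Tnfr1-/- replicate 2 and wild-type replicate 5 were again the highest of their groups (log2 fold change 0.62, SE 0.51, limma adjusted p = 0.739). Cox7a1, a form of heart and skeletal muscle that is also found in brown fat and smooth muscle, averaged 74.1 ± 15.7 in wild type against 81.9 ± 25.3 in Tnfr1-/-, with its highest value, 126, in Tnfr1-/- replicate 2. Its level also ran to 87.9 and 90.9 in wild-type replicates 1 and 2, whose skeletal muscle markers summed to 933 and 918. In wild-type replicate 5, with skeletal muscle markers at 2802, it was lower, at 75.5. Without Tnfr1-/- replicate 2 the log2 fold changes of Cox6a2, Cox8b and Cox7a1 were 0.32, 0.26 and -0.018. The part of skeletal muscle RNA in these values was not tested. The common isoform Cox6a1 was at 745 in Tnfr1-/- replicate 2, its lowest library.

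**Figure D3:**
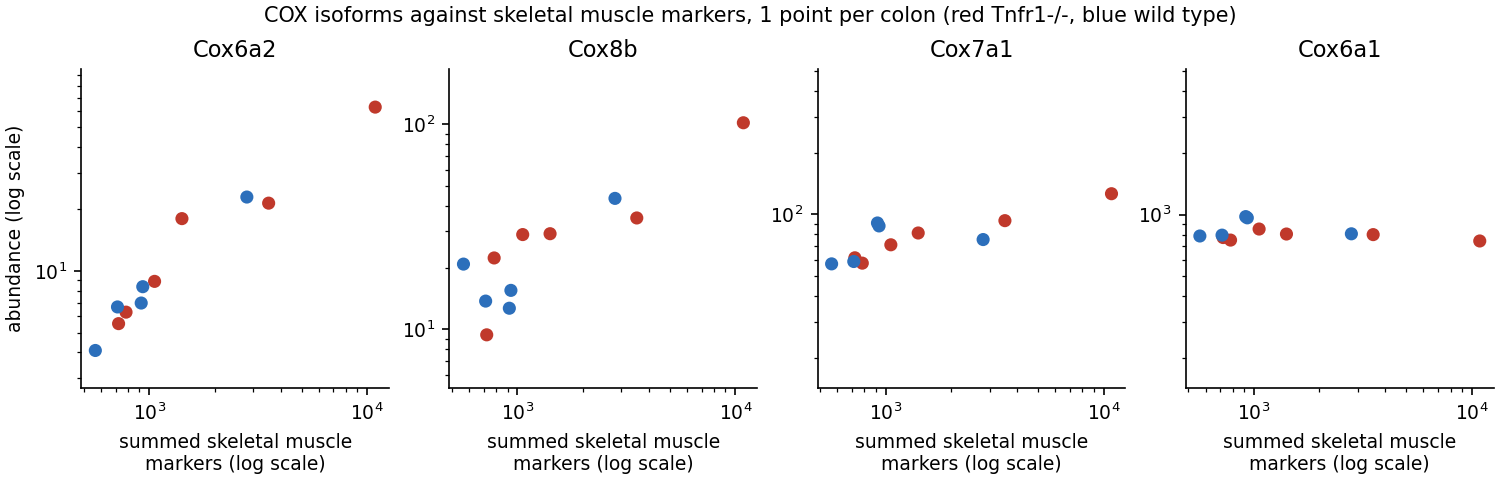
Abundance of the muscle isoforms Cox6a2, Cox8b and Cox7a1 and of the common isoform Cox6a1 against the summed abundance of 11 skeletal muscle markers, 1 point per colon, on log axes that span the same ratio in each panel. Cox6a2 and Cox8b are highest in the colon with most skeletal muscle RNA (62.9 and 102, Tnfr1-/- replicate 2), while Cox6a1 is at 745 there.

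Other tissue isoforms of complex IV were low. Cox4i2, the form known from lung and from low oxygen, averaged 5.80 ± 1.07 in wild type against 5.29 ± 0.509 in Tnfr1-/-, and Cox6b2, the testis form, at 22.5 ± 4.91 and 18.8 ± 3.86. Ndufa4l2, a hypoxia-inducible relative of the COX subunit Ndufa4, was at 10.1, 13.6, 12.1, 14.1 and 18.0 in wild-type replicates 1 to 5 and from 14.2 to 21.2 in Tnfr1-/-, with a median of 16.2. Wild-type replicate 5 lay inside the Tnfr1-/- range and the other 4 below it (log2 fold change 0.34, SE 0.15, limma adjusted p = 0.532). Ndufa4 itself was at 671 ± 70.5 and 613 ± 26.1.

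In complex V all 17 tested nuclear members had a log2 fold change below 0. Atp5d, the delta subunit of the rotating stalk, was at 445, 472, 435, 401 and 465.8 in wild-type replicates 1 to 5 and between 379 and 413 in Tnfr1-/-, with a median of 408. Again wild-type replicate 4 was the 1 wild-type library inside the Tnfr1-/- range (log2 fold change -0.14, SE 0.05, limma adjusted p = 0.429). Atp5b, the catalytic beta subunit and the most abundant nuclear member, was at 1529 ± 109.7 and 1446 ± 78.5. Atp5e, the epsilon subunit of the stalk, and the small membrane subunits Atp5j2 and Atp5mpl had mean abundances of 547, 609.9 and 827 in wild type, against 499, 563 and 763 in Tnfr1-/-.

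Subunit c of ATP synthase, which forms the rotor ring, is encoded by 3 genes with 1 mature protein. The order of their levels was the same in both groups, with Atp5g3 at 1027 ± 109 and 964 ± 62.3, Atp5g1 at 451 ± 51.5 and 419.6 ± 25.6, and Atp5g2 at 276 ± 20.1 and 276 ± 21.8. Atp5g2 had the smallest difference of any nuclear member (log2 fold change -0.00050, 95% interval -0.15 to 0.14). The value of Atp5g2 is less certain than the others, since 40.2% of its 31-base words occur in other genes.

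The 13 mitochondrial genes were far more abundant than the nuclear ones, with mean levels in wild type from 3413 (mt-Atp8) to 36194 (mt-Co1), against a median of 284 over the nuclear members. Taken without the chromosome 1 copies, the order in both groups began with the COX subunits mt-Co1, mt-Co2 and mt-Co3 and then mt-Atp6, a proton channel subunit of complex V. mt-Co1 was at 33246, 33393, 39431, 30879.6 and 44021 in wild-type replicates 1 to 5 and from 27402 to 41799 in Tnfr1-/-, with a median of 37492. The ranges of the groups overlapped (log2 fold change 0.01, SE 0.14, limma adjusted p = 0.989). mt-Co2, mt-Co3 and mt-Atp6 had wild-type means of 31622 ± 6673, 29249 ± 4469 and 26787 ± 4184, against 31583 ± 4124, 28766 ± 4398 and 26769.5 ± 4150.2 in Tnfr1-/-. Between libraries the ranges of these 4 overlapped, but within libraries mt-Co1 was above mt-Co2 and mt-Co3 above mt-Atp6 in all 11, and mt-Co2 above mt-Co3 in 9. mt-Atp6 was above mt-Cytb, the next in order, in all 11 without any overlap.

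mt-Cytb, the cytochrome b of complex III, followed at 13313 ± 1643 and 13393 ± 1820.0. Of the 7 complex I genes, mt-Nd1 was the highest, at 11699 ± 2211 and 10896 ± 1436. mt-Nd6, the 1 member read from the other strand of mitochondrial DNA, was at 7345, 6165, 10846, 6294 and 11088 in wild-type replicates 1 to 5 and from 6322 to 8406 in Tnfr1-/-, with a median of 7753. Wild-type replicates 3 and 5 were the high ones (log2 fold change -0.09, SE 0.17, limma adjusted p = 0.911). Next came mt-Nd4 (6989 ± 967 and 7189 ± 927) and mt-Nd4l (6193 ± 659 and 6428 ± 838), whose frames overlap by 7 bases, and mt-Nd5, mt-Nd2 and mt-Nd3 with wild-type means of 4376, 4337 and 4225, against 4287, 4245 and 4015 in Tnfr1-/-. Over all 13, limma adjusted p ran from 0.869 to 0.997, and each 95% interval lay within 1.5-fold.

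Of the 13, the shortest gene rested on the fewest counts. From the authors' deposited means, mt-Atp8 rested on about 1752 estimated counts in a typical library, against 1396604 for mt-Co1 and 17412 for mt-Nd3. 1 unit of abundance corresponded to 0.525 estimated counts for mt-Atp8 and 13.9 for mt-Atp6. The SE of the log2 fold change was 0.16 for mt-Atp8, 0.17 for mt-Nd6 and 0.15 for mt-Co2. The tested nuclear members had a median of 4160.2 estimated counts, from 36.4 to 51460.

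The chromosome 1 copies took a large share of the mitochondrial abundance, which is per transcript length. Gm29216, the chromosome 1 copy of the end of mt-Co1, had a mean value of 40537 over the 11 libraries. That was above the mean of any other gene in the table, mt-Co1 included. In estimated counts the order was reversed, at about 337193 for Gm29216 (492 bases) against 1396604 for mt-Co1 (1545 bases). Gm10925 (copy of mt-Atp6), Gm28661 (mt-Co2), Gm28438 (mt-Nd3) and Gm28437 (mt-Co3) averaged 6838, 3270, 2564 and 237. Gm10222 and Gm28439, the copies of mt-Nd4l and mt-Nd4, were listed at 0 in every library although their aligned bases match without a mismatch. The copies of mt-Co2, mt-Co3 and mt-Atp6 also had 0 mismatches, so sequence alone does not place their reads. Gm28661 ran from 1018 in Tnfr1-/- replicate 4 to 5015 in Tnfr1-/- replicate 3, while mt-Co2 was at 32765 and 33289 there. With the copies added the order of the mitochondrial genes changed: mt-Atp6 (33616 with its copy) came before mt-Co3 (29223), and mt-Nd3 (6675) before mt-Nd4l (6321), where alone they averaged 26778, 28985, 4110.6 and 6321. Together the copies held 20.9% to 24.9% of the summed value of mitochondrial genes and copies, and none passed the test between genotypes (limma adjusted p from 0.726 to 0.997). Whether these reads came from the nuclear copies or from mitochondrial DNA was not tested. Other genes that share words with mitochondrial members were not counted among the copies. An example is Gm13340, in which 45.2% of the words of mt-Co1 occur on either strand.

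**Figure D4:**
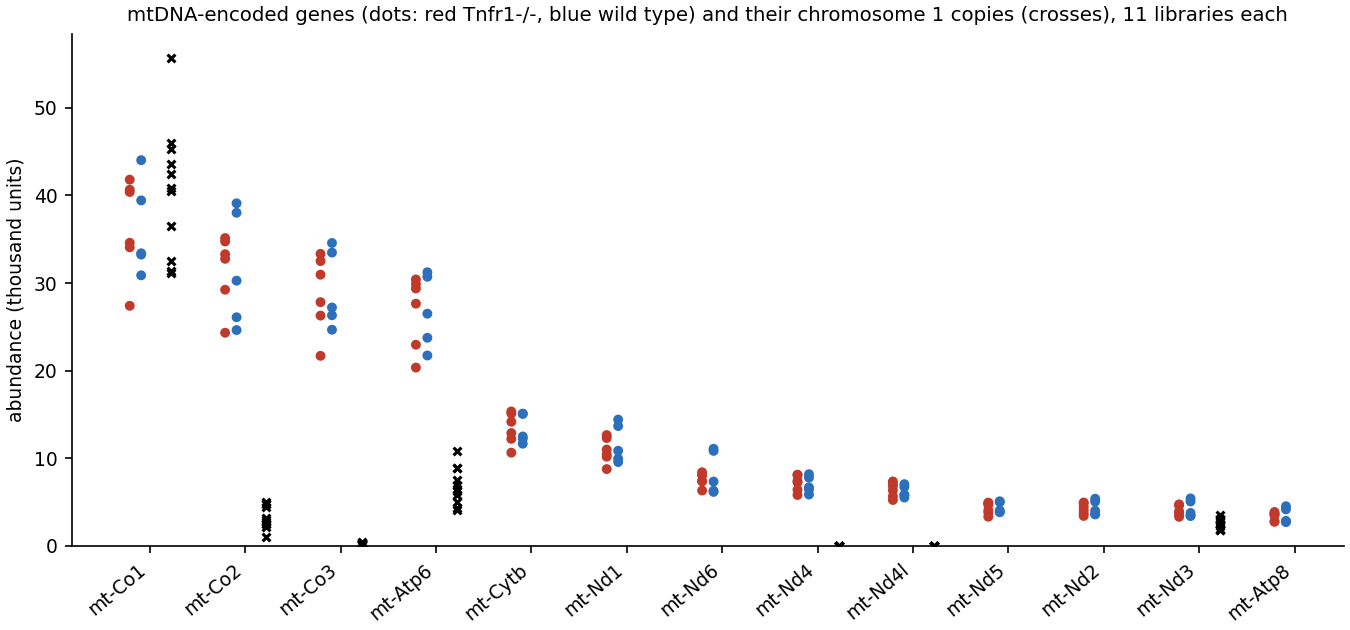
Abundance of the 13 mitochondrial genes in each of the 11 libraries (dots, red Tnfr1-/-, blue wild type) and, as crosses, of its chromosome 1 copy, identical or near-identical over all or part of the gene, where there is one. Red and blue dots overlap for every gene, and the crosses beside mt-Co1 (mean 40537) reach as high as mt-Co1 itself.

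Summed over members, nuclear RNA was at 38720, 36025, 33987, 30897 and 35322 in wild-type replicates 1 to 5 (mean 34990 ± 2866). In Tnfr1-/- it was at 33189, 33850, 32711, 32671, 33062 and 32000 (mean 32914 ± 618), 94.1% of the wild-type mean and inside the wild-type range. Mitochondrial RNA summed to 174641, 164201, 216131, 154641 and 224116 in wild type (186746 ± 31407) and to 169335, 143462, 206953, 181905, 199347 and 209293 in Tnfr1-/- (185049 ± 25527), 99.1% of the wild-type mean. The mitochondrial sum thus varied more between colons of 1 genotype than between genotypes. It made up 18.5% ± 2.46 of all abundance in wild type against 18.6% ± 2.06 in Tnfr1-/-, and nuclear members 3.47% ± 0.222 and 3.32% ± 0.170. Unlike the nuclear sum, the nuclear share did not stay inside the wild-type range. It ran from 3.31% to 3.81% in wild type and from 3.10% to 3.62% in Tnfr1-/-. Tnfr1-/- replicates 3 (3.23%), 4 (3.27%) and 6 (3.10%) lay below every wild-type library. Wild-type replicate 4, lowest in the nuclear sum, had a share of 3.31%, as did replicate 3.

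The ratio of mitochondrial to nuclear RNA was 5.36 ± 0.93004 in wild type (4.51 to 6.36), against 5.63 ± 0.859 in Tnfr1-/- (4.24 to 6.54). Low ratios were found in colons of both genotypes, in wild-type replicates 1, 2 and 4 and in Tnfr1-/- replicates 1 and 2. With the chromosome 1 copies added to the mitochondrial sum the ratio was 6.90 ± 1.31 and 7.25 ± 1.04. Without wild-type replicates 1 and 2 the Tnfr1-/- mean ratio was 0.954 of the wild-type mean, where with all libraries it was 1.05, so the side on which Tnfr1-/- lay depended on those colons.

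**Figure D5:**
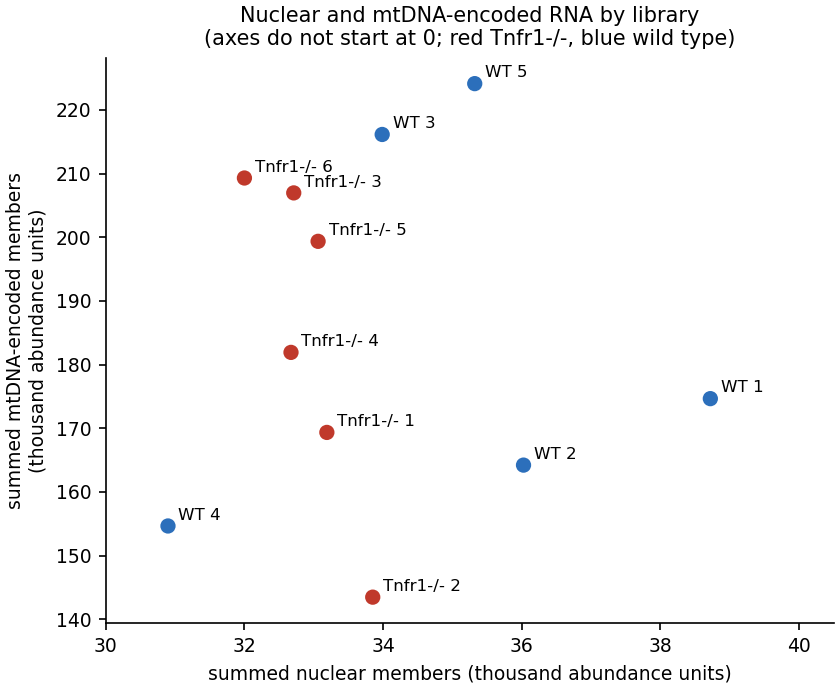
Summed abundance of nuclear members (x axis) and of mitochondrial members (y axis) in units of 1000, 1 point per colon (red Tnfr1-/-, blue wild type). The 6 Tnfr1-/- colons span 32000 to 33850 in the nuclear sum, within the wild-type span of 30897 to 38720, and both groups spread widely in the mitochondrial sum.

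At the level of single transcripts, 275 of 385 member transcripts were tested and 0 were called, where 3 of 33276 transcripts were (0.00902%). At an unadjusted p under 0.05, 13 were lower and 9 higher in Tnfr1-/-, where 3.93% and 4.33% of all transcripts were. The main transcripts of Ndufs8 and Sdhb were the 2 whose groups did not overlap, both lower (of all transcripts, 0.64% were lower and 0.556% higher without overlap). The Sdhb transcript ENSMUST00000010007.8 averaged 206 ± 16.5 in wild type against 188 ± 2.51 in Tnfr1-/-. In the authors' deposited table, 305 member transcripts had a test, 0 passed at a q under 0.05 (smallest q 1), and 10 (3.28%) had a p under 0.05, where 4.39% of all transcripts did.

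Genes that build or regulate the chain were not called either. Of 14 complex I assembly factors, 5 were lower and 0 higher at an unadjusted p under 0.05 (5.17% and 4.2% of all genes), with a median log2 fold change of -0.05. Ndufaf8, a small factor needed for complex I assembly, averaged 54.0 ± 2.61 in wild type against 47.3 ± 0.896 in Tnfr1-/-, without overlap (log2 fold change -0.19, SE 0.04, limma adjusted p = 0.289). Nubpl, which delivers iron-sulfur clusters to complex I, was at 9.56 ± 1.09 and 7.50 ± 0.830 and Ndufaf1 at 17.5 ± 0.830 and 16.1 ± 0.736. Among 31 gene identifiers for assembly factors of complexes II to V, 6 were lower and 0 higher (median -0.08). They include Sdhaf1, a factor of complex II (13.0 ± 0.953 and 11.0 ± 0.704, without overlap), and the COX factors Coa3 (121 ± 8.69 and 106 ± 5.93) and Cox18 (10.9 ± 1.03 and 9.01 ± 0.940, without overlap).

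Of 20 genes that copy, transcribe or process mitochondrial DNA and RNA, 2 were lower and 1 higher (median -0.06). Twnk, the mitochondrial replicative helicase, averaged 7.73 ± 0.220 in wild type against 8.95 ± 0.542 in Tnfr1-/-, higher without overlap (limma adjusted p = 0.343). Polg2, a subunit of the mitochondrial DNA polymerase, was at 7.31 ± 0.363 and 6.17 ± 0.581, and Supv3l1, an RNA helicase, at 18.8 ± 1.82 and 16.1 ± 1.30. Of 12 regulators of mitochondrial genes, 1 was lower and 2 higher (median -0.05). Ppargc1a, the coactivator PGC-1alpha, was at 6.15 ± 0.689 and 7.55 ± 0.764 (limma adjusted p = 0.398), Yy1 at 34.2 ± 2.10 and 37.9 ± 2.92, and Myc at 25.4 ± 1.72 and 21.4 ± 1.44 (limma adjusted p = 0.313).

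Among 11 further subunits and carriers, of which Ndufa4l2 is also a member described above, 2 were lower and 0 higher (median -0.07). Etfb, a subunit of the electron transfer flavoprotein, was at 224 ± 15.4 and 199.95 ± 7.56, and Atpif1, the inhibitor of ATP synthase, at 609 ± 30.2 and 544 ± 40.2. Of 14 citric acid cycle genes, 0 had an unadjusted p under 0.05 in either direction (median -0.02), the smallest p being that of Suclg1, a succinyl-CoA synthetase subunit (254 ± 26.8 and 234 ± 11.9). The same count held for 21 identifiers of glycolysis and pyruvate entry (median 0.0036), with the mitochondrial pyruvate carrier Mpc2 at 181 ± 22.2 and 163 ± 11.8.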

How the data were processed

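Stranded mRNA libraries from 11 colons were read from 1 end for 75 bases, per the labels' protocols. Versions and settings of CASAVA, kallisto and sleuth, and of build mm10, all named in the submitters' processing notes, are not given there. The authors deposited a normalized signal per transcript, TPM divided by a factor for each library, in the form sleuth writes. TPM keeps no depth, and the table holds no read totals. Per the file headers, the authors' own p-value and q-value of each transcript and a mean on the natural log (ln) scale of estimated counts are also given. Raised from the ln scale and summed over 49810 transcripts, those deposited means come to 34979957 counts in a typical library. The authors' deposited log2 fold change was not used.

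Of 113193 distinct transcripts, 584 stand on more than 1 line with the same values and were kept once. The 97 without a gene (0.0310% of abundance) were left out, and values were summed per Ensembl gene. Genes at 1 or more in at least 5 libraries were compared on log2(value + 0.5), which understates changes of low genes, with limma 3.58.1 in R 4.3.3 (empirical Bayes with trend, two-sided, Benjamini-Hochberg over all tested genes, call at 0.05). The fit was tested on simulated data. Tables were read in pandas 2.3.3 and numpy 2.4.6 (Python 3.11.15), and figures drawn in matplotlib 3.10.9. Positions and transcript sequences are from GENCODE M21 (GRCm38, mm10) and promoters from RefSeq.

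The members and all lists were chosen with earlier results of these data known. Named were Tnfrsf1a, every mitochondrial member, 4 nuclear members per complex with the smallest p and 2 with the highest mean, tested members of the isoform groups, and up to 3 genes of smallest p per other list. Other genes named were chosen after their values were seen. Settings tried were quantile and 2 other scalings, filters, pseudocounts, array weights, the replicate number as a block, and leaving out libraries; adding the chromosome 1 copies was chosen after seeing the data.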

Additional observations from a re-analysis of the deposited data

Results flagged for a closer look

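In 108 sets of values (1 quantity in 1 genotype, not covering every member), 6 had a single colon lying well outside the others, where chance gives about 5.4. The sets are not independent, since Cox8b and Cox6a2 were flagged in the same 2 libraries, so the total says little about those flags. Cox8b was at 101.7 in Tnfr1-/- replicate 2, the nearest of the other Tnfr1-/- libraries at 34.9, and at 43.5 in wild-type replicate 5, the nearest at 20.8. Cox6a2 was at 62.9 and 22.9 in the same libraries, the nearest at 21.4 and 8.37. Those 2 libraries also had the highest summed skeletal muscle markers of their genotype, 10880 and 2802. Ndufb5 was lowest in wild-type replicate 4, at 227, the nearest at 252. Atp5g2 was highest in wild-type replicate 2, at 309.9, the nearest at 273.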

How the results depend on the processing

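No member and no member transcript was called under any of the 21 alternatives. Tnfrsf1a was called in all of them (log2 fold change -1.64 to -1.51). The number of genes called, 1 as reported, was 2 with nuclear genes rescaled to a common sum, 3 with array weights, and between 1 and 2 with 1 library left out, 2 without wild-type replicate 1. Members at an unadjusted p under 0.05, 9 as reported, numbered 5 with columns rescaled to a common sum and 17 with array weights (15.4% of all genes). With 1 library left out they numbered from 2 to 40. The 2 were found without wild-type replicate 1 (4.07% of all genes lower, 3.22% higher). The 40 were found without wild-type replicate 4 (6.65% lower, 5.05% higher). For rescaled columns the share of all genes is not given here. The cause of these changes in number was not tested. The median log2 fold change of nuclear members stayed below 0 throughout, from -0.13 (without wild-type replicate 4) to -0.02 (without wild-type replicates 1 and 2). That of mitochondrial members took both signs, from -0.10 with array weights to 0.06 without Tnfr1-/- replicate 2. The sums were compared in fewer settings. Tnfr1-/- over wild type ran from 0.914 to 0.985 for the nuclear sum (14 settings) and from 0.933 to 1.04 for the mitochondrial sum (15 settings). For the ratio of mitochondrial to nuclear RNA it ran from 0.954 to 1.10 (15 settings). The mitochondrial sum and that ratio thus took both sides of 1. Of 1048 values of 50 named members, 957 kept direction and call, 91 (12 mitochondrial and 11 nuclear members) changed sign without a call, and 0 became called.

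Same-numbered samples did not consistently deviate together (correlations of 0.27, -0.0060, 0.38, -0.22 and 0.33 for numbers 1 to 5, own number highest for 1 of 5). The labels give no pairing, so the numbers are taken as names. With a replicate block over 5 pairs, 1 gene was called, 6 members had an unadjusted p under 0.05, and the medians were -0.08 (nuclear) and -0.04 (mitochondrial). The share of all genes in that fit is not given here, so the 6 cannot be set against it. The table has no counts per library, so the sampling error of low members is unknown.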
